A study of Homo sapiens with 4 samples.

Results

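The 10 genes DNMT1, DNMT3A, DNMT3B, UHRF1, UHRF2, TET1, TET2, TET3, TDG and MBD2 write, remove or read DNA methylation. They were taken by gene name from a table of 27452 genes, and all 10 had a row. The table comes from RNA sequencing of HepG2, an established human liver cancer line grown in DMEM with serum, in which one group of libraries carried a short hairpin RNA against the transcription factor STAT3 (STAT3 shRNA) and the other a control hairpin (Ctrl shRNA). Each group had 2 libraries, and the comparison asked what lowering STAT3 does to other genes. Nothing in the labels tells if the 2 libraries of a group are separate cultures or carry the same hairpin, so every p-value here rests on library-to-library spread that may be only technical.

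Methylation of cytosine in CpG is copied to the new DNA strand after replication by DNMT1, which UHRF1 guides to the half-methylated site, while DNMT3A and DNMT3B place new methyl groups. TET enzymes oxidise the methyl group, and the glycosylase TDG cuts out the oxidised bases so that repair can restore cytosine. MBD2 binds methylated CpG and brings in the NuRD repressor complex. In many tumours promoters gain methylation while the genome as a whole loses it, and STAT3 has been linked to DNMT1 in other cancer cells.

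Total counts ran from 17694642 to 25862027 per library. The 2 libraries within each group were distinct beyond counting noise (chi-square per degree of freedom 14.5 in the control pair, 4.33 in the STAT3 shRNA pair). STAT3 itself went from 244.7 ± 0.504 to 35.4 ± 0.954 CPM (SD, n = 2 each), where CPM are counts scaled to library size with TMM factors. Its log2 fold change was -2.79 ± 0.09 (SE). Of 8 hepatocyte markers, 3 had a row, and they were at or near 0: albumin (ALB) had 0, 0, 0 and 3 reads, apolipoprotein APOA1 0, 0, 1 and 2, and transferrin (TF) 2.08 CPM in Ctrl shRNA and 0.668 CPM in STAT3 shRNA. SRPRB overlaps TF on the same strand and holds 7936 reads against 111 for TF, so the origin of the TF reads is uncertain. The liver identity given by the labels is therefore not seen in these markers. Summed markers of fibroblasts lay at 52.8 and 60.7 CPM in Ctrl shRNA and at 35.6 and 35.5 CPM in STAT3 shRNA, led by COL1A1 (40.6 and 14.7 CPM) and DCN (10.9 and 14.9 CPM). Of 5 blood cell markers, 2 had a row. Their sum lay at 10.6 and 14.6 CPM in Ctrl shRNA and at 24.1 and 27.9 CPM in STAT3 shRNA, nearly all of it CD68. The gene AC016876.2 overlaps CD68 on the same strand and holds 58.9% as many reads. CD14 had 3 and 4 reads in Ctrl shRNA and 2 and 1 in STAT3 shRNA. Summed endothelial markers lay at 1.16 to 1.75 CPM in all libraries, with CDH5 at means of 1.40 and 0.829 CPM and VWF at 0 to 15 reads. The part of these markers in the results below was not tested.

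None of the 9 genes that could be tested passed the test for a change with STAT3 shRNA. By the quasi-likelihood test of edgeR, two-sided and with p-values adjusted by Benjamini-Hochberg over 15199 tested genes (threshold 0.05), 0 rose and 0 fell, where 35.5% of all tested genes were called, and 41.5% of genes with a CPM in the range of these 9. At an unadjusted p under 0.05 there was 1 of the 9 (TDG), against 45.8% of all genes, and DESeq2 called 0 of them, against 24.7% of all genes. The median absolute log2 fold change was 0.15 for the 9 genes and 0.32 for all tested genes, which were not limited to the CPM range of the 9. A small value was not particular to the 9 genes. In the 7 further lists read below it ran from 0.14 (S-phase genes) to 0.87 (germline genes), with 0.18 for repair partners and 0.19 for other methyl-CpG readers. Fitted folds were at most 1.21, and no 95% interval reached beyond 1.51-fold. In counts simulated for 15199 genes at these depths, the test found 27 of the 50 genes given a 1.5-fold change and 46 of the 50 given a 2-fold change. The simulation left 14999 genes unchanged and gave every gene a common dispersion of 0.00967, whereas 35.5% of genes were called in the data. Its shares are therefore not the power of the test for these 9 genes.

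**Figure D1:**
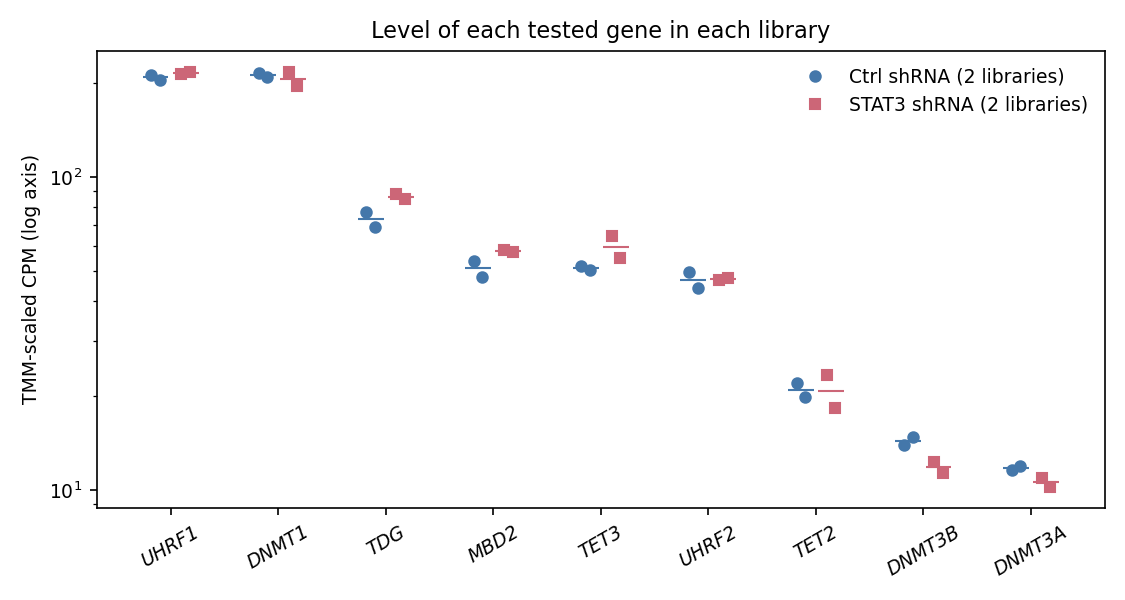
Level of the 9 tested genes in each library as TMM-scaled CPM on a log axis; circles are Ctrl shRNA, squares STAT3 shRNA, and bars the group means. Levels span 11.2 CPM (DNMT3A) to 211 CPM (UHRF1) as means of all libraries, and the groups lie close together for every gene.

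The starts of these genes are shown first, since STAT3 acts by binding DNA. RefSeq (GRCh38.p14) gave 21 windows for the 10 genes, each from 250 bases before a transcription start to 50 after it. Windows of one gene can overlap. For DNMT1, DNMT3B, UHRF1, TET1 and TET3, no window covered the outermost gene start in GENCODE, printed with each gene below. Those outermost starts were not searched, so the counts describe the RefSeq windows only. The STAT motif TTCNNNGAA, which reads the same on both strands, was in 0 of the 21 windows and in 7.66% of all 35116 windows. The E2F motifs TTTCCCGC, TTTGCCGC, TTTCGCGC and TTTGGCGC, searched on both strands and bound by factors that switch on S-phase genes, were in 3 of the 21 windows and in 3.31% of all. The 3 windows belong to DNMT1 and UHRF1, the maintenance pair. They are printed 5′ to 3′ on the gene's strand with the motif in capitals, from chr19:10194948-10195015 (minus strand), chr19:4909427-4909500 and chr19:4909924-4910051 (plus strand).
DNMT1: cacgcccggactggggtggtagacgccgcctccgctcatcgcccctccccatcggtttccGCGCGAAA
UHRF1 first start: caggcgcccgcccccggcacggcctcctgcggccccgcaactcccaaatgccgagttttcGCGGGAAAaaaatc
UHRF1 second start: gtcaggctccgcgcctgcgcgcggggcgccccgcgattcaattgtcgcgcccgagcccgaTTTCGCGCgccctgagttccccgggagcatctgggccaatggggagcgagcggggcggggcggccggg
Counted from the RefSeq transcription start, the motif begins at position -2 in DNMT1, at -14 for the first start of UHRF1 and at -160 for the second. A match describes the letters only.

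The windows also differed in how many CpG they hold, the very site that these proteins act on. The median was 26 CpG per window for the 21 windows and 14 for all windows. TET1, the member with almost no reads, had 6 to 11 in its 3 RefSeq windows, whereas TET3 had 45 and 33. No window covered the GENCODE start of TET1 (68560656) or of TET3 (73986404), where CpG were not counted. DNMT3B, which was tested, had 3 CpG in its only window, which lies inside the gene. A link between CpG number and reads was not tested. MBD2 had 32, more than most windows (17.2% of all had more). The 120 bases before a RefSeq start of TET1, TET3 and MBD2 are printed with CpG in capitals. They come from chr10:68560217-68560336 and chr2:73984790-73984909 (plus strand) and chr18:54224670-54224789 (minus strand).
TET1: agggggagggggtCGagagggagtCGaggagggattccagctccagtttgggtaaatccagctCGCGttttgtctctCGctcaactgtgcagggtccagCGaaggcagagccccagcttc
TET3: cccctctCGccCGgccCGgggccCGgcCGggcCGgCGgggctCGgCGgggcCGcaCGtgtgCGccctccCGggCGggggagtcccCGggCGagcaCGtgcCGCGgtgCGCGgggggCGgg
MBD2: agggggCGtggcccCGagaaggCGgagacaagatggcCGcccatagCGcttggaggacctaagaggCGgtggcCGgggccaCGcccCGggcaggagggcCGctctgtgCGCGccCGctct

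DNMT1 (ENSG00000130816.16; GENCODE 29, GRCh38, chromosome 19, 10133345 to 10231286, minus strand), the maintenance methyltransferase, had 215 and 209 CPM with the control hairpin and 216 and 195 CPM with STAT3 shRNA. The STAT3 shRNA pair spans the control pair, so the groups overlap. Its fitted change on the log2 scale, -0.04 ± 0.09 (SE; 95% interval -0.24 to 0.15), did not pass (adjusted p = 0.722, edgeR). A change of more than 1.18-fold in either direction lies outside the interval. Reads of S1PR2, which overlaps DNMT1 on the same strand, came to 1.67% of those of DNMT1.

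UHRF1 (ENSG00000276043.5; chromosome 19, 4903080 to 4962154, plus strand), the ubiquitin ligase that recognises half-methylated CpG, had 211 and 204 CPM with the control hairpin and 213 and 217 CPM with STAT3 shRNA. Both STAT3 shRNA libraries lay just above both controls, with a log2 fold change of 0.05 ± 0.08 (95% interval -0.13 to 0.23; adjusted p = 0.641, edgeR). Among the 50 tested genes nearest to UHRF1 on the chromosome 25 were lower and 3 higher, with a median log2 fold change of -0.33. UHRF2 (ENSG00000147854.17; chromosome 9, 6413151 to 6507054, plus strand), a related ligase that also binds the hydroxylated base, had 49.6 and 44.1 CPM with the control hairpin and 46.9 and 47.3 CPM with STAT3 shRNA, inside the range of the controls. Its log2 fold change was 0.01 ± 0.10 (adjusted p = 0.954, edgeR).

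Since DNMT1 and UHRF1 are made mostly in S phase, 17 S-phase genes were read beside them. Of these 4 rose, 0 fell and 13 did not pass (median log2 fold change 0.08, against 0.02 for all tested genes, of which 16.8% were called higher and 18.7% lower). RRM2 and RRM1, the subunits of ribonucleotide reductase, rose from 294.5 ± 3.94 to 466.5 ± 3.35 CPM and from 1170 ± 86.5 to 1502 ± 49.2 CPM, and MCM6, of the replicative helicase, from 218.3 ± 3.85 to 275.3 ± 0.240 CPM (SD, n = 2 each; adjusted p = 0.000382, 0.0099 and 0.0103, edgeR). PCNA, the replication clamp that DNMT1 binds, was at 326.1 ± 0.199 and 369.6 ± 14.9 CPM and did not pass (adjusted p = 0.106, edgeR). Without STAT3 shRNA replicate 1 or 2 neither RRM1 (0.0653 and 0.13) nor MCM6 (0.139 and 0.137) passed. RRM2 lies among 50 tested neighbours of which 28 were higher. The deposited FPKM, per transcript length, were used without scaling between libraries, unlike the counts. On the log2(FPKM + 1) scale RRM2 was at 0.34 and did not pass (adjusted p = 0.0652, limma-trend). There RRM1 was at 0.22 and did not pass (0.216), while MCM6 passed at 0.42 (0.0295). The part of cell cycle position in the levels of DNMT1 and UHRF1 was not tested.

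DNMT3A (ENSG00000119772.16; chromosome 2, 25227855 to 25342590, minus strand), a methyltransferase that acts on unmethylated DNA, had 11.6 and 11.9 CPM with the control hairpin and 10.95 and 10.2 CPM with STAT3 shRNA. Both STAT3 shRNA libraries were lower than both controls, by a log2 fold change of -0.15 ± 0.15 (95% interval -0.48 to 0.18) that did not pass (adjusted p = 0.469, edgeR). In the deposited FPKM DNMT3A was instead higher in both STAT3 shRNA libraries (2.59 and 2.44 against 2.34 and 2.18). Of its 50 nearest tested neighbours, 27 were higher and 0 lower, with a median of 0.39, a level above the upper limit of the interval of DNMT3A. DNMT3B (ENSG00000088305.18; chromosome 20, 32762385 to 32809356, plus strand), the other enzyme of this kind, had 13.9 and 14.7 CPM with the control hairpin and 12.3 and 11.3 CPM with STAT3 shRNA. It had the lowest log2 fold change of the 9 genes, -0.28 ± 0.14 (95% interval -0.59 to 0.04; adjusted p = 0.157, edgeR), and the groups did not overlap.

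TET1 (ENSG00000138336.9; chromosome 10, 68560656 to 68694482, plus strand), the TET enzyme best known from embryonic stem cells, had 0 reads in both Ctrl shRNA libraries and 0 and 1 read in the STAT3 shRNA libraries. It was left out of the test by the filter on low counts. In the 3 libraries at 0, the count allows up to 3 reads, or 0.112 to 0.159 CPM in a library, for counting error only. TET2 (ENSG00000168769.13; chromosome 4, 105145875 to 105279816, plus strand), the family member most often mutated in blood cancers, had 21.9 and 19.8 CPM with the control hairpin and 23.3 and 18.2 CPM with STAT3 shRNA. The STAT3 shRNA libraries lay on either side of the controls, and the log2 fold change was 0.0002 ± 0.14 (95% interval -0.32 to 0.32; adjusted p = 0.999, edgeR).

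TET3 (ENSG00000187605.15; chromosome 2, 73986404 to 74108176, plus strand), the TET enzyme known from the egg and early embryo, had 51.8 and 50.5 CPM with the control hairpin and 64.6 and 54.9 CPM with STAT3 shRNA. The groups did not overlap, and the log2 fold change of 0.23 ± 0.10 (95% interval -0.01 to 0.46) did not pass (adjusted p = 0.117, edgeR). With an offset for transcript GC content it passed (log2 fold change 0.29, adjusted p = 0.0327, edgeR), a fit that called 33.9% of all genes. Over its 15 alternatives the adjusted p ran from 0.0327 to 0.718.

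TDG (ENSG00000139372.15; chromosome 12, 103965804 to 103988874, plus strand), which removes the oxidised bases that TET enzymes make, had 77.3 and 69.1 CPM with the control hairpin and 87.8 and 85.2 CPM with STAT3 shRNA. Both STAT3 shRNA libraries were above both controls, with a log2 fold change of 0.24 ± 0.09 (95% interval 0.04 to 0.45), the smallest p of the 9 genes, and it did not pass (adjusted p = 0.0674, edgeR). It passed in 3 of 15 alternatives: with upper-quartile scaling (adjusted p = 0.0346), with a filter of 5 CPM (0.0419) and without Ctrl shRNA replicate 1 (0.00704; log2 fold change 0.29). The range over the alternatives was 0.00704 to 0.642, the highest with the GC offset, where the log2 fold change was 0.05. TDG has the lowest GC content of the 9 genes, 39.5% of its longest transcript. Of its 50 nearest tested neighbours, 11 were higher and 4 lower. Their median log2 fold change was 0.23, close to the 0.24 of TDG, and a change shared by the region was not tested.

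MBD2 (ENSG00000134046.12; chromosome 18, 54151601 to 54224788, minus strand), the methyl-CpG reader, had 54.0 and 47.9 CPM with the control hairpin and 58.6 and 57.7 CPM with STAT3 shRNA. The groups did not overlap, and the log2 fold change of 0.19 ± 0.10 (95% interval -0.03 to 0.41) did not pass (adjusted p = 0.154, edgeR). Without Ctrl shRNA replicate 1 it passed (log2 fold change 0.25, adjusted p = 0.0251, edgeR). Of the 50 tested genes nearest to MBD2, 11 were higher and 4 lower. Their median log2 fold change was 0.19, like that of MBD2, and a change shared by the region was not tested. In all, CPM of the groups did not overlap for 6 of the 9 genes, higher in 4 and lower in 2. Over all tested genes the share without overlap was 70.8%, with 36.5% higher and 34.3% lower.

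**Figure D2:**
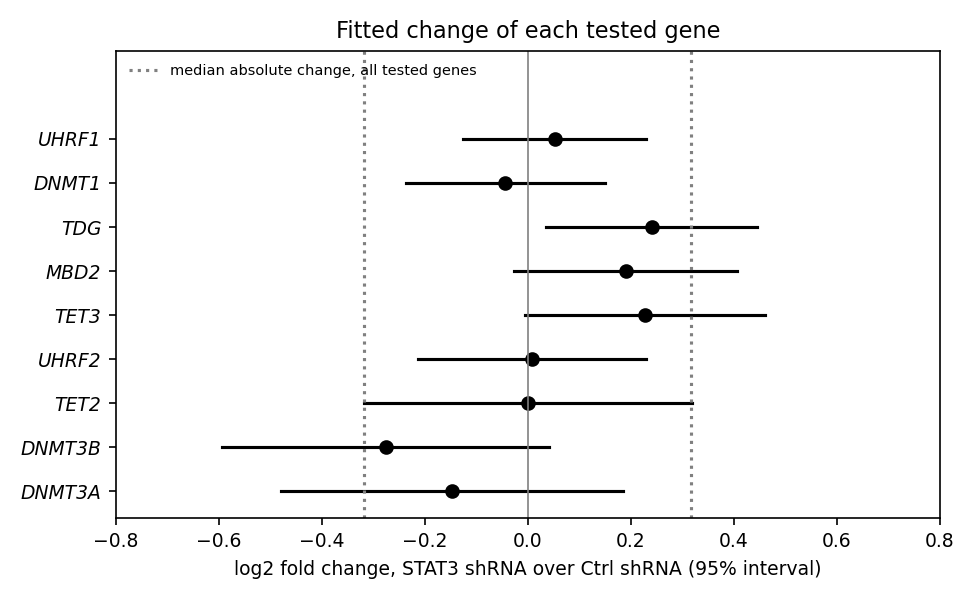
Log2 fold change of each tested gene (point) with its 95% interval (line) from the edgeR fit. Dotted lines mark the median absolute change of all tested genes, 0.32, which were not limited to the CPM range of the 9. All 9 points lie between -0.28 and 0.24, inside the dotted lines, and only the interval of TDG lies clear of 0.

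The deposited FPKM, which are per length, allow levels to be ordered between genes. Over the 4 libraries UHRF1 was highest (60.2 to 62.7 FPKM), then DNMT1 (42.9 to 51.3), TDG (28.4 to 37.0), MBD2 (11.4 to 22.7), UHRF2 (13.7 to 18.1), TET3 (4.57 to 5.97), DNMT3B (3.20 to 3.83), DNMT3A (2.18 to 2.59), TET2 (1.99 to 2.58) and TET1 (listed at 0 to 0.01). The ranges of MBD2 and UHRF2 overlap, and their order turned between the groups: UHRF2 was above MBD2 in both Ctrl shRNA libraries (15.1 and 13.7 against 14.2 and 11.4 FPKM) and below it in both STAT3 shRNA libraries (18.1 and 16.5 against 22.7 and 21.8 FPKM). In CPM, which are not per length, this turn was not seen. MBD2 was above UHRF2 in Ctrl shRNA (54.0 and 47.9 against 49.6 and 44.1) and in STAT3 shRNA (58.6 and 57.7 against 46.9 and 47.3). The FPKM ranges also overlap for DNMT3A and TET2, and the other neighbours in this order are apart. Of the summed FPKM of the 3 methyltransferases DNMT1 held 87.7% to 90.1%. Of that of the TET genes TET3 held 67.0% to 71.9%. DNMT3B had 1.58 and 1.76 times the FPKM of DNMT3A in Ctrl shRNA and 1.27 and 1.31 times in STAT3 shRNA, a ratio that was lower in both STAT3 shRNA libraries and was not tested. In CPM this ratio was also lower in both, but by less. DNMT3B was at 13.9 and 14.7 CPM against 11.6 and 11.9 for DNMT3A in Ctrl shRNA, and at 12.3 and 11.3 against 10.95 and 10.2 in STAT3 shRNA.

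FPKM and counts gave different pictures for MBD2. Its FPKM were 14.2 and 11.4 in Ctrl shRNA and 22.7 and 21.8 in STAT3 shRNA, a log2 fold change of 0.76 on the log2(FPKM + 1) scale that passed in limma-trend (adjusted p = 0.0256). With a pseudocount of 0.1 the values were 0.80 and 0.0252. It was the only one of the 9 genes that passed with FPKM, where 16.7% and 16.4% of all tested genes did. Reads divided by FPKM give the transcript length that the authors' FPKM imply, here set relative to the median gene of each library. For MBD2 this length was 3.72 and 4.14 kb in Ctrl shRNA and 2.62 and 2.70 kb in STAT3 shRNA, a log2 shift of -0.56 (1.47-fold shorter) without overlap.

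Shifts that large in either direction were seen in 2.88% of 12201 genes with at least 1 FPKM in every library, and 12.8% of those genes shifted at least 1.2-fold without overlap. Of the 9 genes, only MBD2 did. DNMT3A lay just outside at 1.19-fold, from 4.81 and 5.38 kb to 4.31 and 4.27 kb (log2 shift -0.25), and UHRF2 went from 3.20 and 3.16 kb to 2.64 and 2.92 kb (-0.19). TDG, TET3 and DNMT3B shifted by at most 1.01-fold. GENCODE 29 lists 5 MBD2 transcripts, of 5188, 1237, 1182, 701 and 241 bases, so a different mix of long and short forms would change the implied length. The tables give no reads per transcript, and the mix was not tested.

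**Figure D3:**
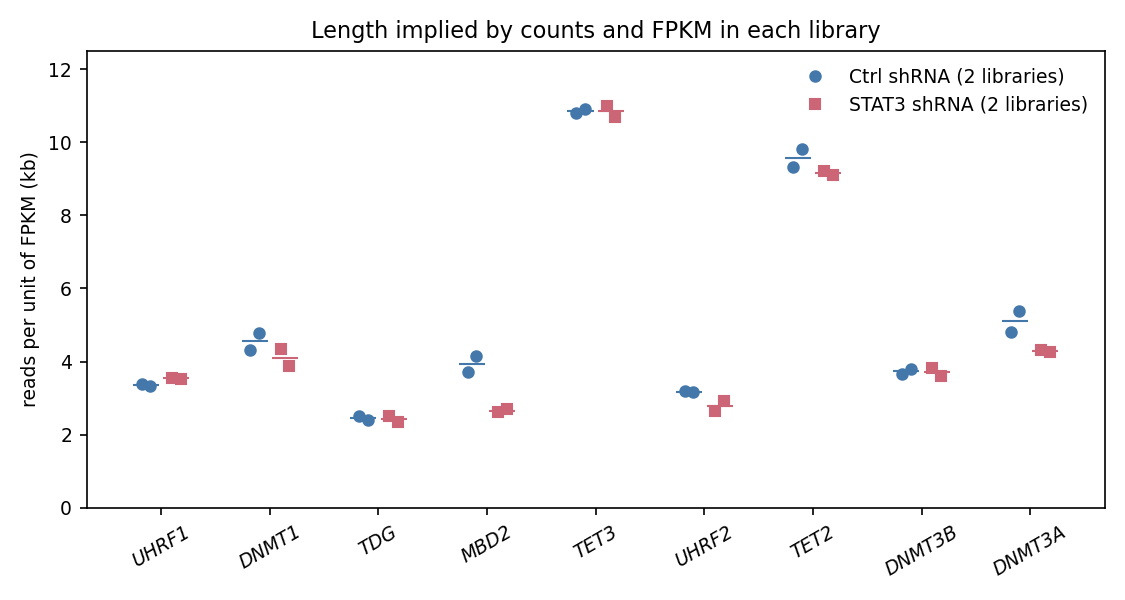
Transcript length in kb implied by reads and FPKM for the 9 tested genes in each library; circles are Ctrl shRNA, squares STAT3 shRNA, bars group means. MBD2 has the largest fold shift of the 9 genes, 3.72 and 4.14 kb against 2.62 and 2.70 kb, while TET3 stays between 10.7 and 11 kb.

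Genes that work with these proteins were read in 7 further lists. Of 73 tested genes 13 rose and 15 fell, which is 38.4% and close to the 35.5% of all tested genes. Of 7 writer cofactors and regulators, 2 rose, 2 fell and 3 did not pass (median log2 fold change 0.17). DNMT3L, the inactive relative that stimulates DNMT3A and DNMT3B, had 23 and 18 reads in Ctrl shRNA and 3 and 3 in STAT3 shRNA, and fell by 2.95 ± 0.62 on the log2 scale (95% interval -4.36 to -1.54; adjusted p = 0.00679, edgeR). It passed in 13 of 14 alternatives, with log2 fold changes of -3.20 to -1.13, and not without STAT3 shRNA replicate 1 (adjusted p = 0.0879, edgeR). The opposite-strand gene AP001059.1 overlaps it, holds 419% as many reads and fell by 3.44 on the log2 scale, and without strand their reads cannot be told apart. Of the 50 tested neighbours of DNMT3L, 20 were lower and 1 was higher (median log2 fold change -0.22).

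CDCA7, which recruits the remodeller HELLS to methylated chromatin, fell from 89.2 ± 7.74 to 66.2 ± 1.45 CPM, while HELLS was called higher (79.6 ± 19.8 to 112 ± 13.6 CPM). SMCHD1, which helps keep methylated genes silent, rose from 77.9 ± 14.7 to 114 ± 1.73 CPM (SD, n = 2 each; adjusted p = 0.00742, 0.0392 and 0.00808, edgeR). CDCA7 lies among neighbours on chromosome 2 of which 28 of 50 were lower (median -0.44). CDCA7 passed in 11 of 15 alternatives and SMCHD1 in 13. Without STAT3 shRNA replicate 1 or 2 CDCA7 did not pass (adjusted p = 0.0992 and 0.0652, edgeR). HELLS passed in 10 of 15 alternatives, and not without Ctrl shRNA replicate 2 (log2 fold change 0.24, adjusted p = 0.0704) or STAT3 shRNA replicate 2 (0.36 and 0.212, edgeR). With FPKM, whose groups overlap, its log2 fold change was 0.10 (adjusted p = 0.536 with a pseudocount of 1, limma). The gene TBC1D12 overlaps HELLS on the same strand and holds 12.1% as many reads.

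Of 9 other methyl-CpG readers, 3 rose, 1 fell and 5 did not pass (median -0.10). ZBTB38, a zinc finger reader, rose from 97.5 ± 11.5 to 155 ± 2.71 CPM and MBD4, a glycosylase for mismatches at CpG, by 0.33 ± 0.09 (SE) on the log2 scale from 47.7 ± 1.41 CPM, and MBD5, of the same domain family as MBD2, fell from 6.95 ± 0.154 to 3.57 ± 0.896 CPM (SD, n = 2 each; adjusted p = 0.00119, 0.0198 and 0.013, edgeR). The opposite-strand genes IFT122 and ORC4 overlap MBD4 and MBD5 by 144 and 594 bases and hold 87.3% and 674% as many reads. ZBTB38 passed in 15 of 15 alternatives, MBD5 in 12 and MBD4 in 9. Without STAT3 shRNA replicate 2 MBD5 did not pass (adjusted p = 0.118, edgeR), and without replicate 1 or 2 of that group MBD4 did not (0.249 and 0.147).

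Of 12 NuRD subunits, the complex that MBD2 brings to methylated DNA, 2 rose, 4 fell and 6 did not pass (median -0.05). The histone-binding subunit RBBP4 rose from 202 ± 13.4 to 271 ± 9.34 CPM, the scaffold MTA2 fell from 187 ± 9.98 to 143 ± 2.21 CPM and the deacetylase HDAC1 from 166 ± 5.57 to 130.4 ± 0.182 CPM (SD, n = 2 each; adjusted p = 0.00563, 0.00767 and 0.0095, edgeR). They passed in 12, 11 and 11 of 15 alternatives. With FPKM and a pseudocount of 1 the log2 fold change of RBBP4 was 0.15 and did not pass (adjusted p = 0.294, limma-trend). MTA2 and HDAC1 did not pass there either (0.0789 and 0.056). RBBP4 did not pass without STAT3 shRNA replicate 2 (adjusted p = 0.0924, edgeR), and neither MTA2 (0.0934 and 0.119) nor HDAC1 (0.137 and 0.131) passed without replicate 1 or 2 of that group.

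Of 13 demethylation partners and base excision repair genes, 0 rose, 4 fell and 9 did not pass (median -0.05). PARP1, which marks broken strands for repair, fell from 477 ± 14.7 to 301 ± 0.969 CPM, SMUG1, a uracil glycosylase, from 30.3 ± 2.53 to 21.6 ± 0.680 CPM, and CXXC5, a CpG-binding protein, from 109 ± 2.30 to 91.4 ± 0.201 CPM (SD, n = 2 each; adjusted p = 0.000401, 0.00894 and 0.0345, edgeR). PARP1 passed in 15 of 15 alternatives, SMUG1 in 13 and CXXC5 in 8. Without STAT3 shRNA replicate 1 or 2 neither SMUG1 (adjusted p = 0.107 and 0.0656, edgeR) nor CXXC5 (0.276 and 0.279) passed. CXXC5 was at -0.06 with the GC offset (0.54) and did not pass with the replicate block (0.054).

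Of 12 genes that supply the methyl donor S-adenosylmethionine or the TET cosubstrate 2-oxoglutarate, 1 rose, 4 fell and 7 did not pass (median -0.08). Among the 7, CBS, which draws homocysteine away from methionine, is uncertain, since its identical copy CBSL holds 348% as many reads and was called lower (log2 fold change -0.53, adjusted p = 0.00279, edgeR). IDH1, the cytosolic enzyme that makes 2-oxoglutarate, fell from 263 ± 7.24 to 114 ± 1.88 CPM, AHCY, which clears the inhibitory product of methylation, from 360 ± 37.7 to 225 ± 0.380 CPM, and D2HGDH, which removes 2-hydroxyglutarate, an inhibitor of TET enzymes, from 18.3 ± 0.934 to 10.2 ± 0.185 CPM (SD, n = 2 each; adjusted p = 2.46e-05, 0.000815 and 0.00173, edgeR). IDH1 and D2HGDH lie on chromosome 2 among neighbours of which 30 of 50 and 24 of 26 were lower, with medians of -0.43 and -0.91. IDH1 and AHCY passed in 15 of 15 alternatives and D2HGDH in 13.

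Of 12 germline genes known to be held silent by promoter methylation, 5 had a row and 3 were tested, of which 1 rose. HORMAD1, a meiotic chromosome protein, rose from 2.53 ± 0.398 to 4.64 ± 0.355 CPM (adjusted p = 0.026, edgeR). It passed in 8 of 14 alternatives, and not without Ctrl shRNA replicate 2 (adjusted p = 0.0563, edgeR) or STAT3 shRNA replicate 1 or 2 (0.104 and 0.18). ASZ1, a germ cell protein, was at 1.24 ± 0.124 and 1.62 ± 0.209 CPM and did not pass (SD, n = 2 each; adjusted p = 0.453, edgeR).

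**Figure D4:**
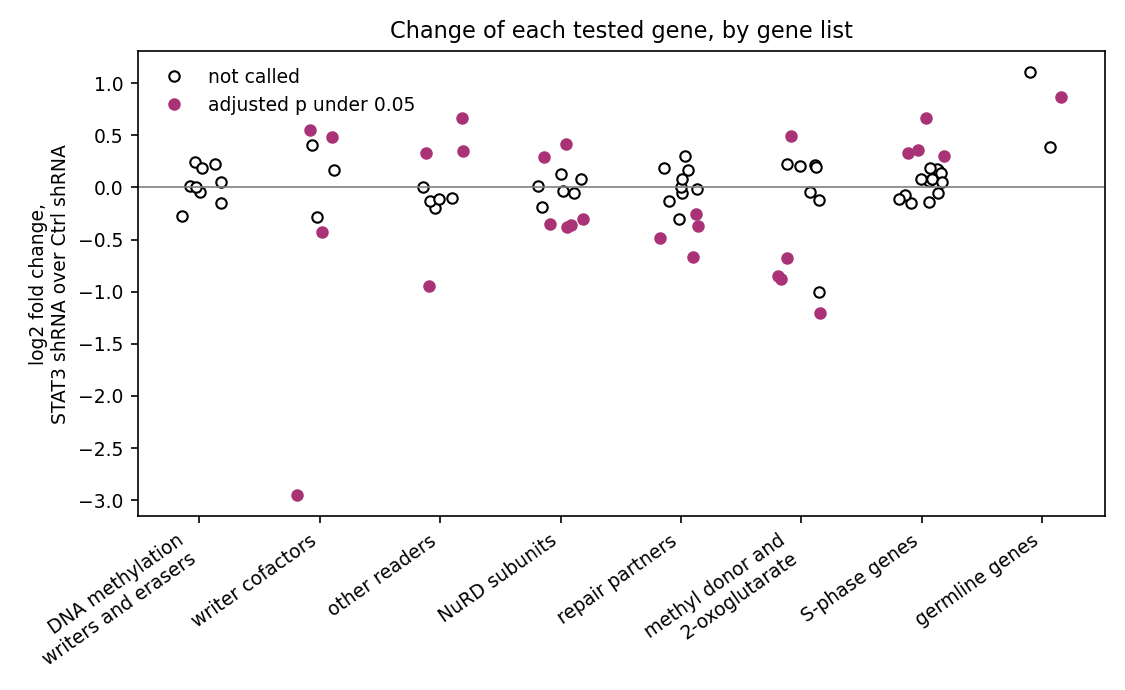
Log2 fold change of every tested gene of the 8 lists; filled points passed the edgeR test at an adjusted p under 0.05, open points did not, and sideways spread has no meaning. All 9 writers and erasers are open, and the other lists hold 28 filled points of 73, the lowest being DNMT3L at -2.95.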

How the data were processed

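For 4 libraries the authors deposited 2 gene tables, one of unnormalized read counts and one of FPKM, per the file headers. How reads were aligned and counted, and on which build and strand, is not given in the sources used here. Sample titles set the groups. Columns named "Si" were taken as STAT3 shRNA, being the only others, with matching numbers.

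The count test was that of edgeR 4.0.16 (R 4.3.3; TMM factors 0.951 to 1.04, filterByExpr defaults, glmQLFit and glmQLFTest, group as the only term). SEs come from the quasi-likelihood F. DESeq2 1.42.0 and limma 3.58.1 (log2 of FPKM plus 1 or 0.1) were alternatives, beside RLE and upper-quartile scaling, other filters, the edgeR exact test, a replicate block, GC and length offsets, a threshold of 0.01 and each library left out. The FPKM fits used the values as deposited, with no scaling between libraries. Summed FPKM were 838551 and 977211 in Ctrl shRNA and 779542 and 791722 in STAT3 shRNA. Folds from FPKM and from counts therefore differ in scaling as well as in length. Neighbours are the 25 tested genes on each side in GENCODE 29. Copies were sought with blastn 2.17.0 (95% identity over 50% of the longest transcript), and none of the 10 genes had one with a row. The division of reads by FPKM and its threshold of 1.2-fold were chosen after the 2 tables were seen to differ. The test was run on simulated data.

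The 10 genes and all lists were chosen with earlier results of these data known. Named genes of a list are the 3 called ones of smallest p, or the 2 most abundant where fewer than 2 were called. HELLS was added after its values were seen. Replicate numbers did not pair the libraries. Intervals and floors cover counting error or the spread of these libraries only.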

Additional observations from a re-analysis of the deposited data

How the results depend on the processing

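Of the 9 tested genes, DNMT3B, UHRF1, TET3, TDG and MBD2 kept their direction in all 15 alternatives. Genes called lower among the 9 stayed at 0 in every alternative. Genes called higher were 1 with upper-quartile scaling, the 5 CPM filter, the GC offset and either FPKM fit, and 0 to 2 with a library left out. Over all genes 5396 were called, against 2535 and 2494 with FPKM, 2897 at a threshold of 0.01 and 2527 (without STAT3 shRNA replicate 1) to 7291 (without Ctrl shRNA replicate 1) with a library left out; without STAT3 shRNA replicate 2 there were 2567. Calls in the other 7 lists, 28 in all, ran from 9 (without STAT3 shRNA replicate 2) to 42 (without Ctrl shRNA replicate 1), with 13 without STAT3 shRNA replicate 1. With a library left out, the lone library of its group is assumed to vary like the other pair. The replicate block gave 5447 calls over all genes, 0 among the 9 and 27 in the lists. Deviations of same-numbered libraries correlated at -0.0286.

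Log2 fold changes near 0 changed sign without passing any threshold, and the cause was not tested. DNMT1 was at 0.0042 with upper-quartile scaling, 0.0825 with the GC offset, 0.16 with either FPKM fit and -0.12 to 0.0251 with a library left out. DNMT3A was at 0.11 and 0.15 with FPKM, where both STAT3 shRNA libraries were above both controls. UHRF2 was at -0.0072 with RLE factors, -0.12 with the GC offset, -0.032 with the length offset, -0.014 with DESeq2 and -0.0786 to 0.063 with a library left out. TET2 was at -0.016 with RLE factors, -0.0053 without a filter, -0.012 with the replicate block, -0.14 and -0.13 with the GC and length offsets, -0.0005 in the exact test, -0.026 with DESeq2 and -0.20 to 0.16 with a library left out. DNMT3A and DNMT3B had 188 to 328 reads per library. Sums with near-identical copies were not run for the 10 genes, since none had a copy with a row.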

Other observations

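The balance of the maintenance pair was read within each library from the deposited FPKM. DNMT1 had 0.802 and 0.713 times the FPKM of UHRF1 in Ctrl shRNA and 0.830 and 0.819 times in STAT3 shRNA, with the 2 control libraries further apart than the groups. The higher ratio in STAT3 shRNA was not seen in CPM. There DNMT1 and UHRF1 were at 215 and 211 and at 209 and 204 in the Ctrl shRNA libraries. In STAT3 shRNA they were at 216 and 213 in replicate 1 and at 195 and 217 in replicate 2. Set against the FPKM of the clamp PCNA, UHRF1 was at 0.195 and 0.191 in Ctrl shRNA and at 0.173 and 0.164 in STAT3 shRNA, lower in both. In FPKM DNMT1 was at 0.156 and 0.136 against 0.144 and 0.134, with overlap. In CPM DNMT1 and UHRF1 were both lower against PCNA in both STAT3 shRNA libraries, without overlap. PCNA was at 326.2 and 325.9 CPM in Ctrl shRNA and at 359.1 and 380.2 CPM in STAT3 shRNA. TET3 had 2.03 and 2.30 times the FPKM of TET2 in Ctrl shRNA and 2.31 and 2.57 times in STAT3 shRNA. The FPKM ratios depend on implied lengths, which shifted by a log2 of -0.15 for DNMT1 and 0.07 for UHRF1. No ratio was tested.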
